A study of Mus musculus with 12 samples.

Results

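Lipid droplet coat proteins and the enzymes and regulators of triacylglycerol turnover were followed across both experiments of a mouse study of Chrebp and choline. The set held 10 genes chosen by name, Plin2, Plin3, Plin4, Plin5, Hilpda, Pnpla2, Abhd5, G0s2, Dgat1 and Dgat2. All 10 were found by identifier among the 22274 genes of the tumor table, and 9 by symbol among the 19496 named genes of the macrophage table. Plin4 was not analysed here in macrophages. The genes were proposed with both comparisons already known, so their changes are given as a description, without p-values. A gene is said to have risen or fallen where its adjusted p was under 0.05 in a fit over all genes of its table.

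By the study's description, the tumors were grown from MC38, a mouse colon carcinoma cell line, placed under the skin of C57BL/6 mice. In shChrebp tumors (3 libraries, genotype label Chrebp knockdown) the cells carried a hairpin against Chrebp, a transcription factor that responds to glucose, and in shCtrl tumors (3 libraries, genotype label WT) a control hairpin. The macrophages were bone-marrow-derived macrophages (BMDM), cells grown from bone marrow in culture, given choline (3 libraries) or PBS (3 libraries). The study's design text has the BMDM primed for 4 h with IFN-γ plus LPS and then kept for 24 h in medium with 200 μM choline, and does not say separately what the PBS cells received. The labels give no age of the mice, no clone or pool of the hairpin cells and no word on whether replicates came from separate animals or cultures, and the p-values cover no more than the spread among these samples, which may be technical.

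Cells store neutral lipid, mainly triacylglycerol and sterol esters, in droplets bounded by a phospholipid monolayer. Perilipins coat that surface. Plin2 and Plin3 occur in most cell types, Plin4 and Plin5 mainly in fat, muscle and other tissues with high lipid flux. The enzymes Dgat1 and Dgat2 make the last step of triacylglycerol synthesis. Pnpla2 (ATGL) makes the first cut of its breakdown. Abhd5 (CGI-58) activates Pnpla2, while G0s2 and Hilpda inhibit it. Macrophages that take up much lipid accumulate such droplets as foam cells.

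Promoters are shown for 3 genes on which the values below turn: Plin2, the most abundant perilipin in both tables, Hilpda, which stood higher in one comparison and lower in the other, and Plin4, the set's largest fold change. Each runs from 250 bases before to 50 after an annotated start, 5′ to 3′, from RefSeq on GRCm38.p6, and capitals mark matches to the motifs named after the sequences. Plin2 lies at chr4:86670010-86670309 on the minus strand, Hilpda at chr6:29272238-29272537 on the plus strand and Plin4 at chr17:56109733-56110032 on the minus strand.
Plin2: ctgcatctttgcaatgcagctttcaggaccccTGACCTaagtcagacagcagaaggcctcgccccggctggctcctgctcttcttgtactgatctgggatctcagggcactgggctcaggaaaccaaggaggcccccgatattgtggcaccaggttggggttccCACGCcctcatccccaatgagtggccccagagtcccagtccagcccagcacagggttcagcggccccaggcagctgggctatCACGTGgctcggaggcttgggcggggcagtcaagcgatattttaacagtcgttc
Hilpda: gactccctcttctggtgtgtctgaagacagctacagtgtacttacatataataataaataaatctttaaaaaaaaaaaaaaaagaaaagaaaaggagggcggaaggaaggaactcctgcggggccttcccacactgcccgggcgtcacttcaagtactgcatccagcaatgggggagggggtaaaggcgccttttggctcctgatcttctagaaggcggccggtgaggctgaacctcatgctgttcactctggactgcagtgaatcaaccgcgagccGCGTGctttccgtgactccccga
Plin4: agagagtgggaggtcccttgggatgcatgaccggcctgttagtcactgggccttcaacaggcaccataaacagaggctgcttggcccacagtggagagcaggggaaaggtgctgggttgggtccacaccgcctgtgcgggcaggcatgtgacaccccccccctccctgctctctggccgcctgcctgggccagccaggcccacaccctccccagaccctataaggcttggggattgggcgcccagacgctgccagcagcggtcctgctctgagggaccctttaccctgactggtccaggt
The motifs were searched on both strands: CACGTG, the E-box that bHLH factors such as Chrebp bind; ACGTG and GCGTG, cores of hypoxia response elements; AGGTCA, the half-site of nuclear receptors; and that half-site repeated after 1 spacer base, the element of PPAR dimers. The Plin2 promoter held the half-site on the opposite strand 218 bases before the start, GCGTG on the opposite strand 86 bases before it, and CACGTG from 4 bases before it, which contains ACGTG on both strands. The Hilpda promoter held GCGTG from position 28, counting the start as 1. RefSeq lists a second start for Hilpda, at chr6:29272376-29272675 with the same flanks, where ACGTG lies 43 bases before the start and GCGTG lies 111 and 8 bases before it. The Plin4 promoter held none of the motifs. Promoters of 8 of the 10 genes were matched in the RefSeq table, with the start nearest the 5′ end of the GENCODE gene used where there was a second one (Hilpda and Plin5). CACGTG was in 1 of these 8, against 7.15% of 32851 promoters of the same length. GCGTG was in 5 of 8 (32.4% of all), ACGTG in 1 of 8 (19.6% of all; 2 of 8 if the second Hilpda start is counted), AGGTCA in 3 of 8 (16.3% of all) and the spaced repeat in 0 of 8 (0.0396% of all). A match describes the letters and not a binding site.

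Tumor libraries held 16010568 to 24181897 counts (shChrebp) and 15844794 to 19177328 counts (shCtrl), and BMDM libraries 34961195 to 35370820 (choline) and 34994756 to 35393902 (PBS) reads in genes. Levels are given in FPKM, fragments scaled by gene length and library size, which allows genes of one table to be compared. Mlxipl, the gene of Chrebp and the target of the hairpin, had 1, 1 and 2 counts in shChrebp tumors, against 3, 1 and 1 counts in shCtrl tumors. These counts are of the row with the identifier of Mlxipl, whose deposited symbol is exchanged with that of S1pr3. The row that carries the deposited symbol Mlxipl is not reported here. Taken by identifier, the transcript could not check the labels at this depth. The libraries labelled tumor tissue held very few leukocyte transcripts, with a summed level of 5 pan-leukocyte and lymphocyte markers of 0.280 to 0.559 CPM (counts scaled to library size) in shChrebp and 0.301 to 0.571 CPM in shCtrl tumors, and Cd3e and Cd8a at 0. In the library of shCtrl replicate 1, epithelial markers stood apart, with Krt8 at 341 counts and Epcam at 140. The 5 fibroblast markers summed to 796.7 to 819.4 CPM in shChrebp tumors, against 944.1 to 974.3 CPM in shCtrl tumors. Col1a2, which averaged 787.4 CPM over all tumor libraries, made up most of that sum. Of the 4 tested 3 fell, Pdgfra (log2 fold change -0.41), Dcn (-1.93) and Col1a2 (-0.23), and Pdgfrb (0.12) did not pass the test. In such bulk samples fewer cells of a type and less RNA per cell cannot be told apart. Which cells the fibroblast marker transcripts came from, the MC38 cells included, was not tested. The 4 endothelial markers summed to 0.706 to 1.29 CPM in shChrebp tumors, against 1.05 to 2.35 CPM in shCtrl tumors. With leukocyte and endothelial transcripts this low, the label of tumor tissue rests on the study's description. Whether the libraries came from tumor tissue was not tested. In BMDM the macrophage markers summed to 4812 to 5252 FPKM with choline, against 3731 to 3890 FPKM with PBS, a sum made up mostly of Lyz2 (log2 fold change 0.55). Of the 7 markers tested Adgre1, Fcgr1 and Lyz2 rose, Cd14 fell, and Csf1r (-0.08), Cd68 (-0.00284) and Itgam (-0.00667) did not pass the test.

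In shChrebp tumors, 3 perilipins and 2 lipolysis regulators stood above shCtrl tumors and Dgat2 stood below. Of the 8 genes of the set that could be tested 5 rose (Plin2, Plin3, Plin4, Hilpda and Abhd5), 1 fell (Dgat2) and 2 did not pass the test (Pnpla2 and Dgat1). Over all 11780 genes tested in tumors 38.2% passed, 18.6% higher and 19.7% lower, in the quasi-likelihood F test of edgeR after Benjamini-Hochberg adjustment. Since the set was proposed with this contrast known, nothing is read from its count. Without shCtrl replicate 1, the library with epithelial markers, the same 5 genes rose, with log2 fold changes of 1.52 for Plin4, 0.17 for Plin2, 0.23 for Plin3, 0.42 for Hilpda and 0.28 for Abhd5, and Dgat2 no longer passed.

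Plin4 had the largest change of the set. Plin4, the longest perilipin, with many repeats of an amphipathic helix, measured 13.7, 13.6 and 13.4 FPKM in shChrebp tumors, against 4.68, 4.83 and 4.62 FPKM in shCtrl tumors. The 3 libraries of each group lay close together and far from those of the other group. These levels came from 1533, 2068 and 1354 counts in shChrebp tumors and 469, 504 and 562 counts in shCtrl tumors. After scaling for library size Plin4 averaged 85.3 ± 1.05 CPM in shChrebp tumors and 29.8 ± 0.48 CPM in shCtrl tumors (SD, n = 3 each), a ratio of 2.86 and a log2 fold change of 1.52 ± 0.05 (SE). Only 7 of the 11780 genes tested had a higher log2 fold change. Plin4 is abundant in fat and muscle, and markers of both were read in these libraries. The 8 adipocyte markers summed to 2.52 to 3.24 CPM in shChrebp tumors, against 3.42 to 3.98 CPM in shCtrl tumors, of which Lipe was the 1 gene above 1 CPM. Adipoq had 1, 0 and 0 counts in shChrebp tumors and 0 in each shCtrl tumor, and Lep was at 0 throughout. The 6 skeletal muscle markers summed to 0.559 to 0.997 CPM in shChrebp tumors, against 0.785 to 1.33 CPM in shCtrl tumors, with Myh4 at 0. The part of cell makeup in the Plin4 value was not tested. Plin4 shares 17 bases with Hdgfl2 on the opposite strand in the GENCODE annotation, and Hdgfl2 had a log2 fold change of 0.05 ± 0.04, which did not pass the test.

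**Figure D1:**
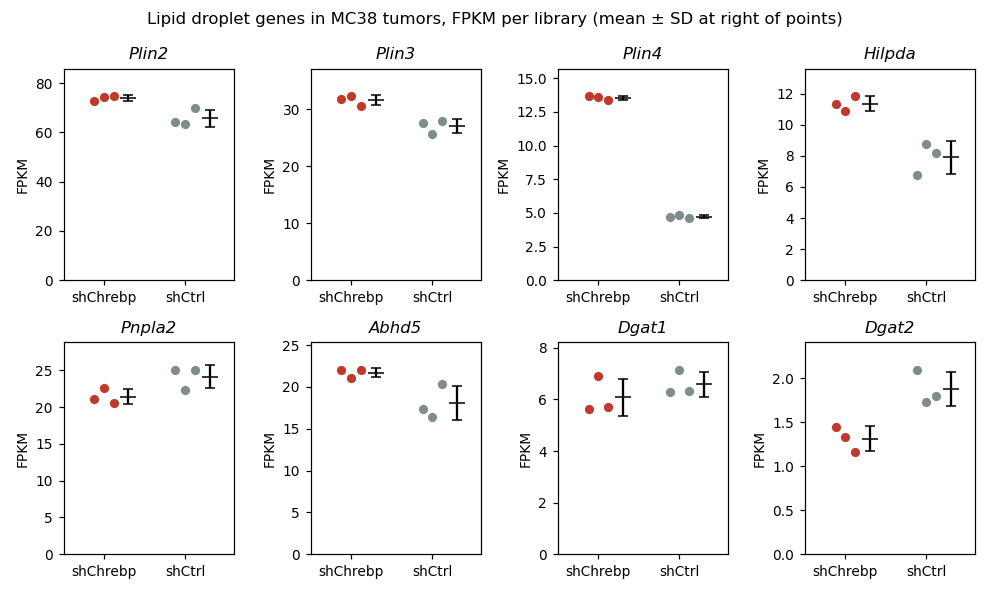
Level of each detected gene of the set in FPKM (vertical axes, each from 0) in the 3 shChrebp and the 3 shCtrl tumor libraries, 1 point per library in replicate order, with the mean ± SD at the right of the points. Plin4 shows 13.4 to 13.7 FPKM in shChrebp tumors and 4.62 to 4.83 FPKM in shCtrl tumors, while the points of Pnpla2 and Dgat1 overlap.

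Plin2 and Plin3 rose by much smaller amounts. Plin2, the perilipin found on droplets of nearly all cells and degraded when it has no droplet to sit on, measured 72.6, 74.5 and 74.7 FPKM in shChrebp tumors, against 64.1, 63.4 and 69.8 FPKM in shCtrl tumors. Its groups did not overlap, and the log2 fold change was 0.18 ± 0.04. Plin3 (TIP47), which moves from the cytosol onto nascent droplets, measured 31.8, 32.3 and 30.7 FPKM in shChrebp tumors, against 27.6, 25.8 and 28.0 FPKM in shCtrl tumors. Its groups did not overlap either, and its log2 fold change was 0.21 ± 0.04. Plin5, which tethers droplets to mitochondria in muscle, heart and liver, had 0 counts in all 6 libraries. A count of 0 allows a level of up to 0.124 to 0.189 CPM, depending on the library (3 counts of its total; such limits cover counting error only). Plin5 lies next to Plin4 in the RefSeq gene order of GRCm38.p6, so of these 2 neighbours one was well measured and the other was not detectable at this depth.

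As a share of the coat transcripts, Plin4 made up 11.6%, 11.3% and 11.3% of the summed perilipin FPKM in shChrebp tumors, against 4.85%, 5.14% and 4.51% in shCtrl tumors. Plin2 made up 61.5%, 61.9% and 62.9% in shChrebp tumors, against 66.5%, 67.4% and 68.2% in shCtrl tumors. The summed level of the perilipins was 119 ± 1.20 FPKM in shChrebp tumors and 97.6 ± 4.30 FPKM in shCtrl tumors (SD, n = 3 each).

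**Figure D2:**
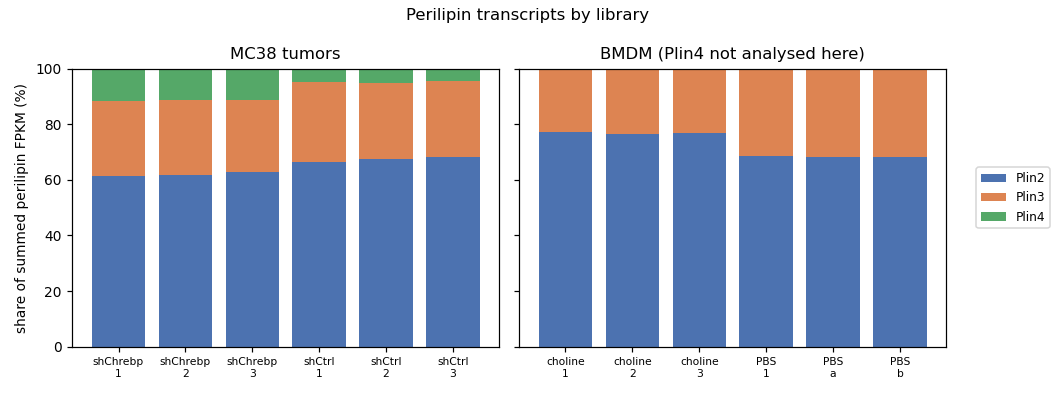
Share of each perilipin in the summed perilipin FPKM (vertical axis, percent) in every library of MC38 tumors (left) and BMDM (right), where Plin4 was not analysed. The Plin4 segment covers 11.3 to 11.6% in shChrebp tumors and 4.51 to 5.14% in shCtrl tumors, and the Plin2 segment 76.6 to 77.2% with choline and 68.0 to 68.7% with PBS.

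Among the lipolysis genes of the tumors, the lipase itself did not pass the test while its activator and one inhibitor rose. Pnpla2 measured 21.1, 22.6 and 20.6 FPKM in shChrebp tumors, against 25.1, 22.4 and 25.1 FPKM in shCtrl tumors, with overlapping groups and a log2 fold change of -0.08 ± 0.06. Abhd5 measured 22.0, 21.1 and 22.0 FPKM in shChrebp tumors, against 17.4, 16.4 and 20.3 FPKM in shCtrl tumors, with a log2 fold change of 0.27 ± 0.06. Every shChrebp library lay above every shCtrl library for Abhd5, and shCtrl replicate 3 came nearest. In the GENCODE annotation an antisense gene, A730085K08Rik, shares 950 bases with Abhd5, and whether counting used strand is not given in the sources used here. The ratio of Abhd5 to Pnpla2 was 1.02 ± 0.0719 in shChrebp tumors and 0.747 ± 0.0583 in shCtrl tumors by FPKM (SD, n = 3 each). The log2 fold changes above are from counts. With limma on log2(FPKM + 0.1) that of Pnpla2 was -0.17, which did not pass the test either.

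Hilpda, a small droplet protein induced by hypoxia and by fatty acids, measured 11.3, 10.9 and 11.8 FPKM in shChrebp tumors, against 6.75, 8.76 and 8.18 FPKM in shCtrl tumors. All 3 shChrebp libraries lay above all 3 shCtrl libraries, which varied more among themselves, and the log2 fold change was 0.51 ± 0.12. These levels rest on 198, 258 and 186 counts in shChrebp tumors and 105, 143 and 154 counts in shCtrl tumors. G0s2, the other Pnpla2 inhibitor, had 0 counts in all 6 tumor libraries. In the GENCODE annotation it lies within Lamb3 on the opposite strand.

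Of the 2 acyltransferases in the tumors Dgat2 fell. Dgat2 measured 1.45, 1.34 and 1.16 FPKM in shChrebp tumors, against 2.09, 1.73 and 1.80 FPKM in shCtrl tumors, from only 50, 73 and 42 counts in shChrebp tumors and 75, 65 and 78 counts in shCtrl tumors. The groups did not overlap and the log2 fold change was -0.59 ± 0.19. At this depth its call was fragile: without shChrebp replicate 3 the log2 fold change was -0.54, without shCtrl replicate 1 it was -0.49, and neither passed the test. Dgat1 measured 5.63, 6.90 and 5.72 FPKM in shChrebp tumors, against 6.28, 7.14 and 6.33 FPKM in shCtrl tumors, with overlapping groups and a log2 fold change of -0.11 ± 0.11. By FPKM Dgat1 exceeded Dgat2 in every tumor, by a ratio of 4.66 ± 0.679 in shChrebp and 3.55 ± 0.563 in shCtrl tumors (SD, n = 3 each).

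With choline, BMDM showed more Plin2, Abhd5 and Dgat1 and less Hilpda and Plin3. Of the 6 genes of the set that could be tested 3 rose, 2 fell and 1, Pnpla2, did not pass the test. Over all 10028 genes tested in BMDM 57.4% passed, 28.2% higher and 29.2% lower, in limma's test with Benjamini-Hochberg adjustment. Again nothing is read from the count of the set. Fold changes in BMDM are on the log2(FPKM + 0.1) scale, which understates the change of low genes.

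Plin2 measured 69.8, 67.8 and 66.3 FPKM with choline, against 52.4, 53.7 and 50.6 FPKM with PBS. The groups stood well apart, with means of 68.0 ± 1.72 FPKM with choline and 52.3 ± 1.57 FPKM with PBS (SD, n = 3 each), a ratio of 1.30 and a log2 fold change of 0.38 ± 0.04 (SE). Plin3 measured 20.6, 20.7 and 20.1 FPKM with choline, against 23.9, 24.9 and 23.8 FPKM with PBS, without overlap, and its log2 fold change was -0.24 ± 0.04. Plin2 thus made up 77.2%, 76.6% and 76.8% of the summed perilipin FPKM with choline, against 68.7%, 68.3% and 68.0% with PBS. The sum over the measured perilipins was 88.4 ± 1.98 FPKM with choline and 76.5 ± 2.13 FPKM with PBS (SD, n = 3 each). Plin5 was near absent, with 0 reads in each choline library and 0, 1 and 0 reads in the PBS libraries.

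**Figure D3:**
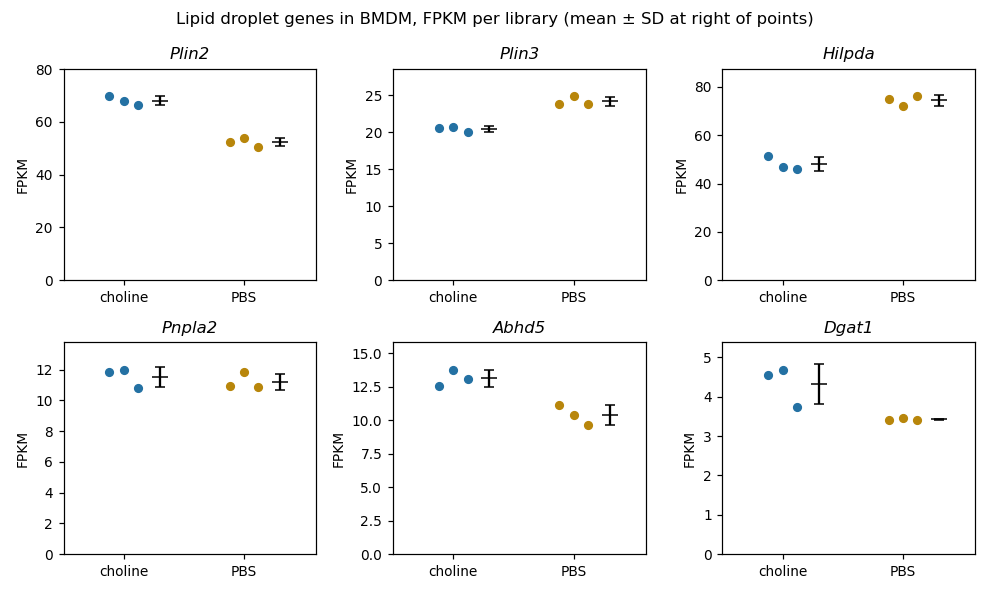
Level of the 6 tested genes of the set in FPKM (vertical axes, each from 0) in the 3 choline and the 3 PBS libraries of BMDM, 1 point per library, with the mean ± SD at the right of the points. Hilpda lies between 46.0 and 51.3 FPKM with choline and between 72.1 and 76.2 FPKM with PBS, Plin2 lies the other way round, and the Pnpla2 points overlap.

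Hilpda had the largest change of the set in BMDM. It measured 51.3, 46.7 and 46.0 FPKM with choline, against 74.9, 72.1 and 76.2 FPKM with PBS. Every choline library lay below every PBS library, the ratio of means was 0.645 and the log2 fold change -0.63 ± 0.05. The number of reads behind it was large, 1783 to 2013 with choline and 2811 to 2957 with PBS. Relative to Plin2, Hilpda stood at a ratio of 0.706 ± 0.0257 with choline and 1.43 ± 0.0818 with PBS by FPKM (SD, n = 3 each), so that Hilpda ranked below Plin2 with choline and above it with PBS.

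Pnpla2 measured 11.88, 11.98 and 10.78 FPKM with choline, against 10.95, 11.82 and 10.86 FPKM with PBS. These groups overlapped, and the log2 fold change was 0.04 ± 0.06. Its activator Abhd5 measured 12.5, 13.8 and 13.1 FPKM with choline, against 11.1, 10.4 and 9.67 FPKM with PBS, without overlap, and its log2 fold change was 0.33 ± 0.06. The ratio of Abhd5 to Pnpla2 was 1.14 ± 0.0798 with choline and 0.930 ± 0.0762 with PBS, and that of Hilpda to Pnpla2 was 4.16 ± 0.227 with choline and 6.65 ± 0.488 with PBS, by FPKM (SD, n = 3 each). G0s2 had 1, 0 and 1 reads with choline and 2, 2 and 0 reads with PBS, too few to test.

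Dgat1 measured 4.55, 4.68 and 3.74 FPKM with choline, against 3.42, 3.45 and 3.41 FPKM with PBS. The PBS libraries lay very close together, and choline replicate 3 was nearer to them than to the other choline libraries. Its log2 fold change was 0.32 ± 0.09, and without choline replicate 2 it was 0.26 and no longer passed the test. Dgat2 measured 0.351, 0.227 and 0.253 FPKM with choline, against 0.175, 0.202 and 0.177 FPKM with PBS, below the minimum of 1 FPKM set for testing.

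**Figure D4:**
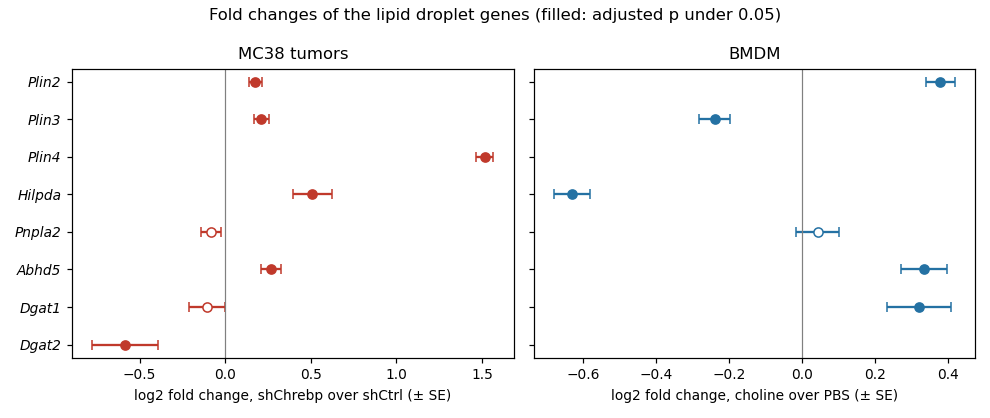
Log2 fold change of each tested gene of the set (points, with bars of ± SE) for shChrebp over shCtrl in MC38 tumors (left) and choline over PBS in BMDM (right), each on its own axis. Filled points passed the test over all genes; Plin4 lies farthest right in tumors at 1.52 and Hilpda farthest left in BMDM at -0.63.

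Side by side, Plin2 and Abhd5 rose in both comparisons, with log2 fold changes of 0.18 and 0.27 for shChrebp over shCtrl and 0.38 and 0.33 for choline over PBS. Plin3 and Hilpda rose in shChrebp tumors, at 0.21 and 0.51, and fell in BMDM with choline, at -0.24 and -0.63. Pnpla2 passed the test in neither. The 2 tables were normalized separately and share no samples, and a difference between the 2 comparisons was not tested.

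The order of the genes by level was led by Plin2 in tumors of both groups, followed by Plin3. In shChrebp tumors Abhd5 and Pnpla2 came next with overlapping ranges, then Plin4, Hilpda, Dgat1 and Dgat2. In shCtrl tumors Pnpla2 stood above Abhd5, followed by Hilpda and Dgat1, whose ranges overlapped, and only then by Plin4 and Dgat2. Plin4 thus stood above Hilpda and Dgat1 in shChrebp tumors and below both in shCtrl tumors. In BMDM with choline the order was Plin2, Hilpda, Plin3, Abhd5, Pnpla2, Dgat1 and Dgat2, and with PBS it was Hilpda, Plin2, Plin3, then Pnpla2 and Abhd5 with overlapping ranges, Dgat1 and Dgat2. G0s2 and Plin5 came last and were not separated from each other in any group.

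The other genes of neutral lipid storage, a list of 56 in 6 groups, were read from the same fits. In shChrebp tumors 5 of the 39 tested rose and 9 fell, 35.9% passing against 38.2% of all genes, with a median log2 fold change of -0.06 against -0.00266 over all genes. The number that rose was 3 without shChrebp replicate 1, without shChrebp replicate 2 or without shCtrl replicate 3, and 2 without shCtrl replicate 2. With DESeq2, 2 rose and 7 fell, and with limma on FPKM 3 rose and 6 fell. In BMDM with choline 12 of the 39 tested rose and 12 fell, 61.5% passing against 57.4% of all genes, with a median of 0.00140 against 0.00287. Without single libraries the number that rose there ran from 8 to 14 and the number that fell from 11 to 12. The counts by group below are to be set beside 38.2% of all genes passing in tumors and 57.4% in BMDM. Nothing is read from those counts.

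Upstream of the acyltransferases, among genes of triacylglycerol synthesis, 1 of 11 tested rose and 3 fell in shChrebp tumors. The 1 that rose was Lpin1, by 0.17 ± 0.07 on the log2 scale (SE, edgeR adjusted p = 0.0485). The phosphatidic acid phosphatase Lpin3 fell by 0.95 ± 0.17 on the log2 scale (SE, edgeR adjusted p = 3.95e-05), the lysophosphatidic acid acyltransferase Agpat4 by 0.46 ± 0.07 (edgeR adjusted p = 1.15e-05) and the glycerol-3-phosphate acyltransferase Gpat4 by 0.16 ± 0.04 (edgeR adjusted p = 0.00329). In BMDM 1 of 12 tested rose and 4 fell with choline. Lpin1, which makes the diacylglycerol that Dgat enzymes use, averaged 2.51 ± 0.092 FPKM with choline and 6.11 ± 0.268 FPKM with PBS (SD, n = 3 each), a log2 fold change of -1.25 ± 0.07 (limma adjusted p = 6.28e-07). Lpin3 fell there too, with a log2 fold change of -0.60 ± 0.10 (limma adjusted p = 5.66e-04), and so did Agpat5 at -0.29 ± 0.04 (limma adjusted p = 2.33e-04).

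Genes of sterol ester turnover, the other neutral lipid of droplets, numbered 4, all tested in both tables. In BMDM 3 rose with choline and 1 fell, where 57.4% of all genes passed. Soat2, one of the enzymes that esterify cholesterol, averaged 44.8 ± 2.22 FPKM with choline and 21.4 ± 2.34 FPKM with PBS (SD, n = 3 each), a log2 fold change of 1.07 ± 0.08 (limma adjusted p = 3.49e-06). Soat1, its more abundant counterpart in these macrophages, averaged 108.0 ± 3.42 FPKM with choline and 91.9 ± 2.69 FPKM with PBS (SD, n = 3 each), a log2 fold change of 0.23 ± 0.04 (limma adjusted p = 7.44e-04). Nceh1, which hydrolyses cholesterol esters, rose as well, with a log2 fold change of 0.50 ± 0.05 (limma adjusted p = 3.13e-05), while Lipa, the acid lipase of the lysosome, fell by 0.17 ± 0.04. In shChrebp tumors Soat1 rose by 0.33 ± 0.05 on the log2 scale (edgeR adjusted p = 1.95e-05), and Lipa fell by 0.43 ± 0.06 (edgeR adjusted p = 4.64e-07).

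Among further lipases, 1 of 4 tested rose in shChrebp tumors, the triacylglycerol hydrolase Ddhd2, by 0.17 ± 0.05 on the log2 scale (edgeR adjusted p = 0.0171). The call of Ddhd2 was lost without shChrebp replicate 1 (0.13), shCtrl replicate 1 (0.13) or shCtrl replicate 2 (0.17). In BMDM with choline, Lipe, the hormone-sensitive lipase that acts after Pnpla2, fell by 0.43 ± 0.08 (limma adjusted p = 0.00103), and the droplet hydrolase Ldah rose by 0.21 ± 0.04 (limma adjusted p = 0.00214).

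Of the genes of droplet formation, 1 of 6 tested rose and 1 fell in shChrebp tumors, Fitm2, an endoplasmic reticulum protein needed for droplets to bud, at 0.17 ± 0.06 (edgeR adjusted p = 0.0251) and Hsd17b11, a droplet-associated dehydrogenase, at -0.22 ± 0.07 (edgeR adjusted p = 0.0206). Neither call was stable. That of Fitm2 was lost without shChrebp replicate 2 (0.14), shCtrl replicate 2 (0.16) or shCtrl replicate 3 (0.13), and that of Hsd17b11 without shChrebp replicate 1 (-0.17) or shCtrl replicate 1 (-0.17). In BMDM 3 of 6 rose and 1 fell with choline. Those that rose were Rab18, a small GTPase of the droplet surface, at 0.35 ± 0.09 (limma adjusted p = 0.00711), Bscl2 (seipin), which shapes nascent droplets, at 0.21 ± 0.06 (limma adjusted p = 0.0190) and Fitm2 at 0.23 ± 0.08 (limma adjusted p = 0.0290), and Hsd17b11 fell by 0.13 ± 0.05 (limma adjusted p = 0.0424). The Fitm2 call was lost without PBS replicate 1 (0.16) or a (0.24), and without choline replicate 1 (0.20) or 2 (0.25). The Bscl2 call was lost without PBS replicate a (0.16), choline replicate 1 (0.19) or choline replicate 2 (0.20). Plin1, the perilipin of fat cells, had at most 1 count or read in any library of either table.

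Fatty acid uptake and activation held Fabp4, the list gene with the largest change in tumors. In shChrebp tumors 1 of 10 tested rose and 3 fell. Slc27a1, a fatty acid transport protein, averaged 52.0 ± 1.18 CPM in shChrebp tumors and 28.7 ± 1.03 CPM in shCtrl tumors (SD, n = 3 each), or 0.86 ± 0.06 on the log2 scale (edgeR adjusted p = 3.43e-13). Fabp4, a fatty acid carrier of fat cells and macrophages, averaged 3.32 ± 0.705 CPM in shChrebp tumors and 6.94 ± 0.413 CPM in shCtrl tumors (SD, n = 3 each), which was -1.08 ± 0.17 on the log2 scale (edgeR adjusted p = 4.97e-06). Angptl4, an inhibitor of lipoprotein lipase that is also a PPAR and hypoxia target, fell by 0.68 ± 0.12 (edgeR adjusted p = 4.35e-05). In the same tumors the 8 macrophage markers summed to 36.8 to 41.4 CPM in shChrebp and 49.1 to 53.4 CPM in shCtrl libraries. Of the 3 of these tested Cd68 fell (log2 fold change -1.10), Cd14 (0.10) and Lyz2 (-0.08) did not pass the test, and the other 5 averaged under 1 CPM. The part of cell makeup in the Fabp4 value was not tested. In BMDM 2 of 11 tested rose and 4 fell with choline. Lpl, the lipase that frees fatty acids from lipoproteins, averaged 117.6 ± 1.18 FPKM with choline and 216.0 ± 4.39 FPKM with PBS (SD, n = 3 each), a log2 fold change of -0.88 ± 0.03 (limma adjusted p = 1.16e-07). Acsl5, an acyl-CoA synthetase, fell by 0.35 ± 0.04 (limma adjusted p = 7.03e-05) and the carrier Fabp5 by 0.27 ± 0.05 (limma adjusted p = 9.57e-04).

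Among regulators of these genes, 1 of 4 tested fell in shChrebp tumors, and 2 of 3 rose and 1 fell in BMDM with choline. In shChrebp tumors Hif1a, the oxygen-regulated subunit of HIF-1, fell by 0.11 ± 0.03 (edgeR adjusted p = 0.00751), and the other 3 tested did not pass. In BMDM with choline Ppard, a fatty acid receptor, fell by 0.31 ± 0.08 (limma adjusted p = 0.00628), Hif1a rose by 0.17 ± 0.05 (limma adjusted p = 0.0103) and its partner Arnt by 0.14 ± 0.04 (limma adjusted p = 0.0163). The Arnt call was lost without choline replicate 2 (0.14).

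**Figure D5:**
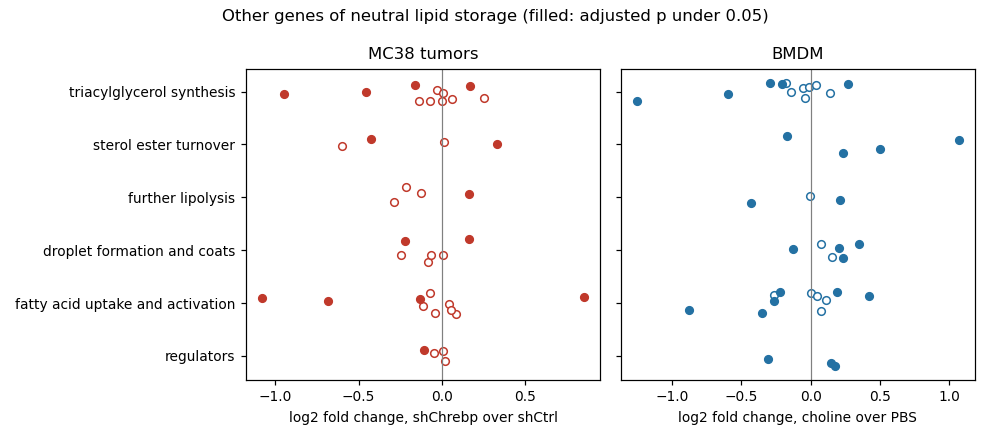
Log2 fold changes of the tested genes of 6 groups of neutral lipid storage (rows), for shChrebp over shCtrl in MC38 tumors (left) and choline over PBS in BMDM (right), 1 point per gene, filled where the adjusted p was under 0.05. Points lie on both sides of 0 in most rows; the farthest on the right are Slc27a1 at 0.86 in tumors and Soat2 at 1.07 in BMDM.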

How the data were processed

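RNA-seq libraries were made from total RNA of MC38 tumors (shChrebp and shCtrl) and of BMDM (choline and PBS), 3 libraries a group, grouped by their titles. Per the submitters' processing notes the build was GRCm39; no aligner, counter or strand setting is given in the sources used here. The tumor table that the authors deposited holds estimated counts and FPKM by Ensembl identifier; 92.0% of the estimated counts were whole, and all were rounded before the test. The BMDM table that the authors deposited holds values by symbol, taken here as FPKM. Its sample headings name no unit. The headings of 2 PBS columns are the same, so they are called PBS a and b and carry no number.

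Tumor genes were matched by identifier to GENCODE vM21, which named 22219 of 22274 rows. In the deposited symbols of the tumor table Mlxipl and S1pr3 are exchanged against their identifiers, and identifiers were followed. Tumor counts were tested with edgeR 4.0.16 (TMM scaling, filterByExpr, robust quasi-likelihood F test), and CPM are after TMM scaling. BMDM FPKM were tested with limma 3.58.1 (trend, robust) on log2(FPKM + 0.1) for genes with at least 1 FPKM in at least 3 libraries. P-values were adjusted over all genes tested in a table (Benjamini-Hochberg, threshold 0.05). BMDM values fitted whole multiples of 1 read at some gene length in 19494 of 19496 rows (99.99%, within 0.01 reads), which gave implied reads per gene. With the length left free, a fit was close to assured for rows with few libraries above 0. For such rows the share therefore does not show that reads were recovered. With edgeR on these reads 6426 genes were called. The implied read counts rest on a gene length inferred from the values, the shortest at which all libraries held whole reads. The reads printed are thus the smallest whole numbers that fit, and the length itself was not checked. The 2 rows with no name took at most 1.43e-05% of summed FPKM and were left out. The tests were run on simulated counts (R 4.3.3) and the recovery of reads on simulated FPKM (Python 3.11.15), with outcomes not given here. The simulated counts had the same dispersion for all genes, so they do not show how the tests behave on these data.

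The members, lists and tests were chosen with earlier results of these data known. Of each of the 6 list groups, up to 3 genes that passed with the smallest adjusted p are named per comparison. Lipa and Hsd17b11 in BMDM, Lpin1 in tumors, Plin1, Lamb3 and Hdgfl2 were named outside this rule after their values were seen. Alternatives were DESeq2 1.42.0, FPKM scales, filters, leaving out each library and a replicate block.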

Additional observations from a re-analysis of the deposited data

How the results depend on the processing

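Alternatives were run for the counts of calls, the set and the list genes named by rule, and none of these reversed direction. They were not run for the markers, the nearest genes, Lamb3, Hdgfl2, Lpin1 in tumors, or Lipa and Hsd17b11 in BMDM. The other genes of neutral lipid storage that passed in tumors numbered 14, and 9 with DESeq2's Wald test, 9 with limma on log2(FPKM + 0.1) and 9 with limma on log2(FPKM + 1); without the filter on low counts they numbered 17, and without single replicates 11 to 14. Genes called ranged from 3183 to 4819 in tumors and from 4867 to 6426 in BMDM over all alternatives. Of the set, 5 to 6 genes passed in tumors and 4 to 5 in BMDM. The gene lost in tumors was Dgat2, whose log2 fold change was -0.58 with DESeq2 and did not pass. The Plin4 log2 fold change lay between 1.35 and 1.54 over its alternatives, the lower values with a pseudocount on FPKM. Same-numbered tumor libraries did not deviate together (correlations of 0.06, -0.06 and -0.03), so the numbers were not taken as pairing; with the replicate block 4640 tumor genes, 6 of the set and 14 of the list passed. No paired analysis was possible for BMDM because 2 PBS columns carry no number of their own. Outside the set, in tumors Ddhd2, Hsd17b11 and Fitm2 did not pass with DESeq2, and Gpat4, Hif1a and Fitm2 did not pass with limma on FPKM. In BMDM Rab18 and Fitm2 did not pass with edgeR on reads, nor did Fitm2 without the filter on low values. Depth limits Plin5 and G0s2 in both tables and Dgat2 in BMDM.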

Other observations

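The genes whose pattern was nearest to a member over the 12 libraries were looked up among 8922 genes tested in both tables, by the root mean square difference of log2 levels after the gene's mean in each table was subtracted. They are given as a description for the 3 members with the widest summed changes among the 6 tested in both tables. Plin4 and Dgat2, tested in tumors only, were not ranked. Nearest to Hilpda were Hsph1 (0.0871), Me2 (0.0929) and Tuba4a (0.0942), whose log2 fold changes were 0.51, 0.38 and 0.47 for shChrebp over shCtrl and -0.65, -0.62 and -0.60 for choline over PBS. Nearest to Abhd5 were Map1lc3b (0.0481), Plpbp (0.0544) and Rab7 (0.0563), with 0.18, 0.23 and 0.22 in tumors and 0.33, 0.24 and 0.32 in BMDM. Nearest to Plin2 were Mff (0.0281), Rabgap1 (0.0294) and Atp6v0a1 (0.0330), with 0.22, 0.16 and 0.18 in tumors and 0.38, 0.35 and 0.35 in BMDM. Since these genes were picked by nearness over the same libraries, fold changes like those of the member follow from the choice. The gene Lamb3, within which G0s2 lies on the opposite strand, fell in shChrebp tumors, with a log2 fold change of -1.40 ± 0.15 (edgeR), while G0s2 itself stood at 0 counts in all 6 tumor libraries.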
